A study of Drosophila melanogaster with 6 samples.

Results

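The 10 genes described here are the posterior compartment selectors and the core of the Hedgehog pathway of Drosophila melanogaster, namely en, inv, hh, ci, ptc, smo, ihog, boi, cos and fu. They were named by symbol, and all 10 were found among the 17612 genes of the count table and had enough counts to be tested with 8802 genes in all. Poly-A RNA was sequenced from leg discs of third-instar larvae, the folded epithelia from which adult legs form, with 3 libraries of the genotype called Double and 3 of wild type (WT). Each library came from 20 discs of larvae kept at 25 °C. The study describes Double as discs with a PRE deletion. PRE stands for Polycomb response element, a stretch of DNA that recruits the Polycomb group repressors. The labels give neither what was deleted nor their locus, and no other allele or agent in either group. They do not say whether larvae were male or female, which of the leg pairs were taken, or whether replicates came from separate crosses. The p-values therefore measure how far these libraries spread, which may be technical in part.

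In the fly leg disc, cells of the posterior compartment express the selector genes en and inv and secrete the ligand Hedgehog. Anterior cells express ci, whose protein is cut into a repressor in the absence of Hedgehog and acts as an activator where Hedgehog arrives, next to the compartment border. There the pathway switches on dpp dorsally and wg ventrally, which in turn pattern the leg. The neighbouring genes inv and en and the gene hh are known Polycomb targets in the fly, silenced in anterior cells, which is why they are of interest in discs with a PRE deletion.

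The leg disc markers were present in all 6 libraries, Dll at 299.7 to 406.3 CPM (counts scaled to library size with the TMM factors of edgeR). Of the 8 leg disc markers 1 was called, dac, needed for the intermediate leg segments, which fell to 409.3 to 417.3 CPM in Double, against 580.6 to 612.6 CPM in WT (edgeR adjusted p = 0.00387), and 4 of the 8, dac included, stood at an unadjusted p under 0.05. Libraries held 11772621, 11103471 and 10025174 counts in Double replicates 1, 2 and 3, and 13605668, 8818943 and 10941615 counts in WT replicates 1, 2 and 3. WT replicate 1 stood apart in the markers of the fat body, a tissue that dissected discs can carry. The 7 fat body markers summed to 3289 to 13631 CPM in the Double libraries, and to 194 CPM in WT replicate 1 against 4786 and 6843 CPM in the other WT libraries. The 7 salivary gland markers summed to 1087 to 3296 CPM in Double and to 8.85, 66.4 and 3522 CPM in WT replicates 1, 2 and 3. No marker of either list was at 0 in all libraries, and none of the 14 passed the test. At an unadjusted p under 0.05 stood Sgs1 and Lsp1alpha, higher in every Double library, and Fbp2, with the opposite sign. Sgs1 had 109.2 to 182.9 CPM in Double and 0.44 to 5.43 CPM in WT (edgeR adjusted p = 0.0678). Fbp2 had 3.6 to 19.2 CPM in Double and 18.0 to 204.4 CPM in WT (adjusted p = 0.381). The 6 haemocyte markers summed to 826 to 952 CPM in Double and 980 to 1027 CPM in WT without overlap. All 6 were lower in Double, none passed, and NimC1 and Pxn stood at an unadjusted p under 0.05. The 5 muscle precursor markers summed to 182 to 199.8 CPM over the 6 libraries, the 5 neuron and glia markers to 72.4 to 175 CPM and the 3 tracheal markers to 147 to 172 CPM, with none past the threshold. The 3 wing and notum markers summed to 29.4 to 32.7 CPM in Double and 21.3 to 33.8 CPM in WT. Those of the eye, ey and gl, were low and summed to 0.271 to 5.51 CPM in Double and 9.62 to 17.3 CPM in WT, and neither list held a gene past the threshold.

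None of the 10 genes differed between Double and WT in edgeR's quasi-likelihood test at an adjusted p under 0.05, where 1.49% of all tested genes did (131 of 8802). None stood at an unadjusted p under 0.05, against 12.3% of all tested genes, and none of the 10 was called by DESeq2, which called 3.02% of its genes, or by limma-voom, which called 1.18%. The log2 fold changes ran from 0.032 for hh to 0.17 for en. Their median was 0.073, against 0.00044 over all tested genes, and the median size of change regardless of direction was 0.073 for the 10 genes and 0.12 for all tested genes. Over the 3855 tested genes at or above the level of the lowest of the 10, these medians were 0.017 and 0.080. The 95% intervals of the single genes together spanned from -13.0% for hh to 27.4% for en. The groups did not overlap for ptc, ihog and boi, which were higher in every Double library, and 10.3% of all tested genes were higher without overlap in this way. All 10 fold changes lay above 0, as did 50.1% of those of all tested genes and 2155 of the 3855 at such levels. This direction held with RLE factors and with library totals, but only 8 of the 10 lay above 0 without WT replicate 1 or with the summed fat body markers as a covariate, and 9 without WT replicate 2 or 3. The covariate mostly sets WT replicate 1 apart, with 194 CPM of these markers against 3289 to 13631 CPM in the other libraries. The covariate and leaving out that library are therefore not separate checks.

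**Figure D1:**
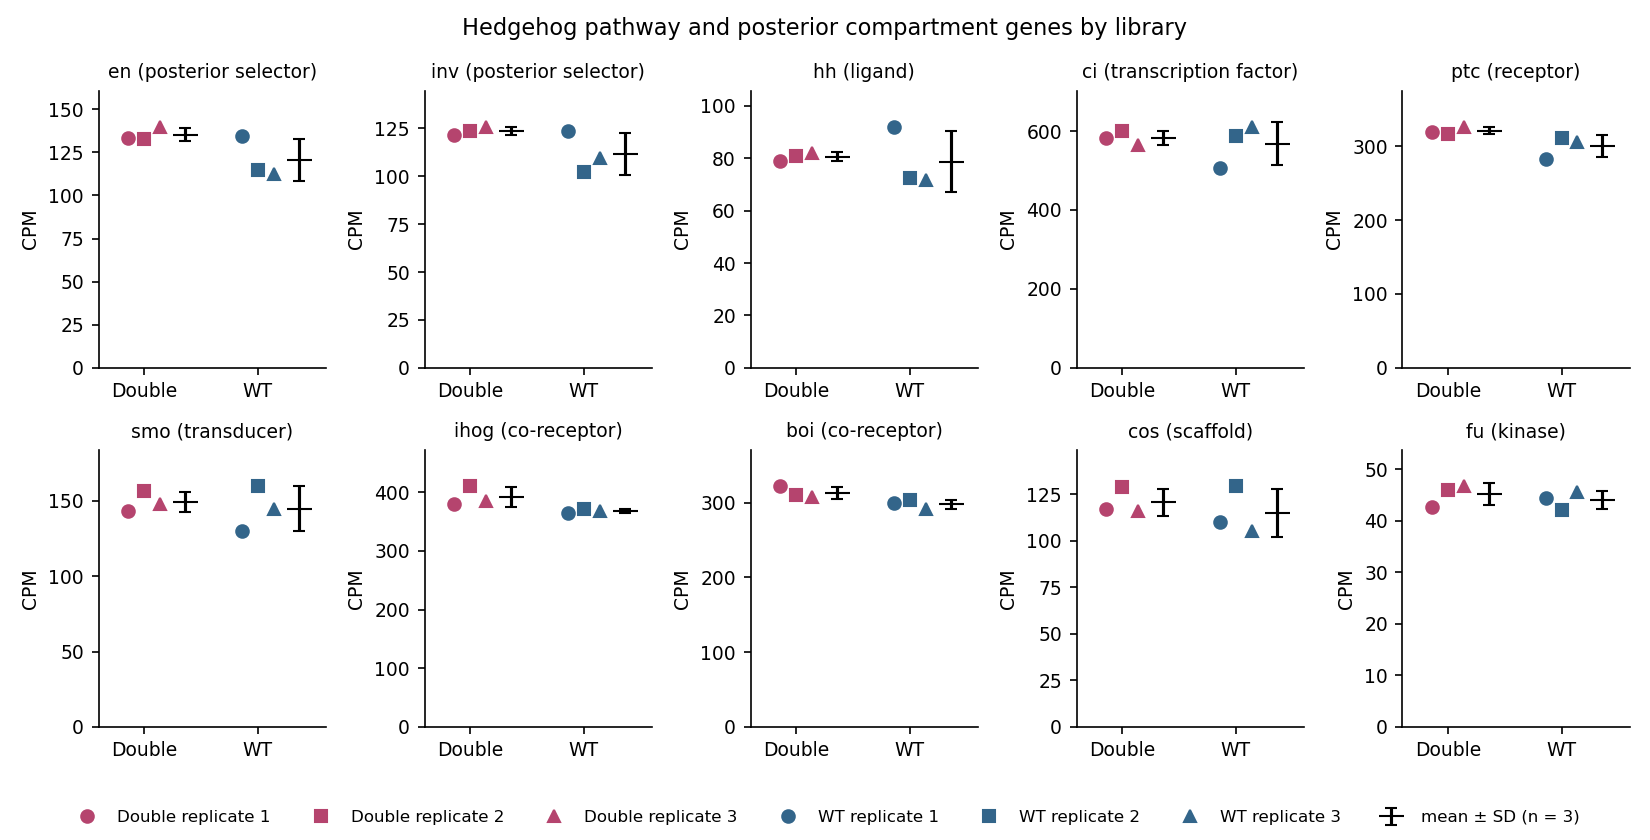
Expression of the 10 genes in each library, as CPM on axes that start at 0, with Double left of WT. Symbols mark the replicate, and the black bar gives the mean and SD of 3 libraries. In WT replicate 1 (blue circle) en, inv and hh were higher and ci and smo lower than in the other WT libraries, while the Double libraries lay close together.

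The posterior selector en (engrailed, FBgn0000577) encodes a homeodomain transcription factor that represses ci and keeps hh on in posterior cells. It lies on the minus strand of 2R at 11524006 to 11528210 (dm6). It had 133.1, 132.9 and 139.9 CPM in Double replicates 1, 2 and 3, and 134.4, 114.8 and 112.2 CPM in the WT replicates. The WT libraries were split, with replicate 1 inside the Double range and the other WT libraries below it. The log2 fold change of en was 0.17 (SE 0.08; edgeR adjusted p = 0.451), from 135.3 ± 3.996 CPM in Double and 120.5 ± 12.1 CPM in WT (SD, n = 3 each). Its 95% interval ran from a change of -1.10% to one of 27.4%.

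Its neighbour inv (invected, FBgn0001269), a paralogue of en whose expression pattern and function largely overlap with those of en, occupies 11474465 to 11509695 on the plus strand of 2R. The gap between inv and en is 14.3 kb. The values of inv were 121.7, 123.4 and 125.9 CPM in Double and 123.7, 102.2 and 109.7 CPM in WT. As for en, WT replicate 1 lay within the Double range and the other WT libraries below it. For inv the log2 fold change came to 0.14 (SE 0.08; edgeR adjusted p = 0.506).

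The ligand gene hh (hedgehog, FBgn0004644), on the minus strand of 3R at 23128169 to 23141906, encodes the secreted signal of posterior cells. It had 78.9, 80.8 and 82.2 CPM in Double and 92.1, 72.4 and 71.8 CPM in WT. WT replicate 1 was the highest of the 6 libraries and the other WT libraries were the lowest. On the log2 scale the fold change of hh was 0.032 (SE 0.10; edgeR adjusted p = 0.927).

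The anterior gene ci (cubitus interruptus, FBgn0004859), on the minus strand of chromosome 4 at 47710 to 57041, encodes the zinc finger transcription factor through which the pathway acts. It had 583.2, 601.4 and 564.7 CPM in Double and 507.1, 586.7 and 611.3 CPM in WT. Here WT replicate 1 was the lowest of the 6 libraries, and the groups overlapped. Its log2 fold change came to 0.037 (SE 0.08; edgeR adjusted p = 0.887).

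The values of these genes depended on single WT libraries. Without WT replicate 1 the log2 fold change of en was 0.25 (SE 0.06; edgeR adjusted p = 0.0715), that of inv 0.22 (SE 0.06; adjusted p = 0.127) and that of hh 0.16 (SE 0.07; adjusted p = 0.303). All 3 posterior genes then stood at an unadjusted p under 0.05, against 14.3% of the genes tested there, and none passed the adjusted threshold, which 1.74% passed. That of ci was then -0.038 (SE 0.05; edgeR adjusted p = 0.821). Leaving out another WT library moved the values the other way. Without WT replicate 2 they were 0.13 for en, 0.083 for inv and -0.025 for hh, and without WT replicate 3 they were 0.11, 0.12 and -0.040. With the summed fat body markers as a covariate, the values were 0.26 for en, 0.23 for inv, 0.17 for hh and -0.034 for ci, with edgeR adjusted p of 0.126, 0.153, 0.369 and 0.898 in that order, where 1.9% of all tested genes were called. Hox genes among the leg disc markers also differed between the WT libraries. Scr, the Hox gene of the first leg pair, had 506.7 to 566.1 CPM in Double, and 718.4 CPM in WT replicate 1 against 602.55 and 606.74 CPM in the other WT libraries. Scr was lower in every Double library than in every WT library (edgeR adjusted p = 0.304). Ubx, the Hox gene of the last leg pair, had 14.3 to 15.8 CPM in Double, and 7.96 CPM in WT replicate 1 against 11.2 and 14.5 CPM in the other WT libraries. Antp had 40.9 to 41.9 CPM in Double, and 27.7 CPM in WT replicate 1 against 38.1 and 36.2 CPM in the other WT libraries. It was higher in every Double library than in every WT library (edgeR adjusted p = 0.384). The part of fat body RNA and of the mix of leg pairs in these values was not tested. In bulk discs, a change in the number of posterior cells, in RNA per posterior cell or in expression in anterior cells cannot be told apart.

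A ratio of the counts of 2 genes in the same library does not depend on how libraries are scaled. The ratio of hh to ci was 0.135, 0.134 and 0.146 in Double replicates 1, 2 and 3, and 0.182, 0.123 and 0.117 in the WT replicates. WT replicate 1 was above all Double libraries and the other WT libraries were below them. The ratios of en to ci and of inv to ci had the same arrangement of libraries, at 0.221 to 0.248 and 0.205 to 0.223 in Double. In WT replicate 1 they were 0.265 and 0.244, and in the other WT libraries 0.184 to 0.196 and 0.174 to 0.179. On the log2 scale the mean ratio of hh to ci was -2.85 ± 0.06 in Double and -2.86 ± 0.34 in WT (SD, n = 3 each), a difference of 0.0023 that became 0.20 without WT replicate 1, -0.079 without WT replicate 2 and -0.11 without WT replicate 3.

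The pair of selectors kept a nearly constant proportion, with an en to inv ratio of 1.08 to 1.11 in Double and 1.02 to 1.12 in WT. The ratio of hh to en was 0.592, 0.608 and 0.587 in Double and 0.685, 0.631 and 0.640 in WT. Every Double library was below every WT library for this ratio. The mean difference was -0.13 on the log2 scale, and -0.092 without WT replicate 1. Of 9 ratios examined it was the one in which the groups did not overlap. It was chosen after the values were seen and has no test.

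**Figure D2:**
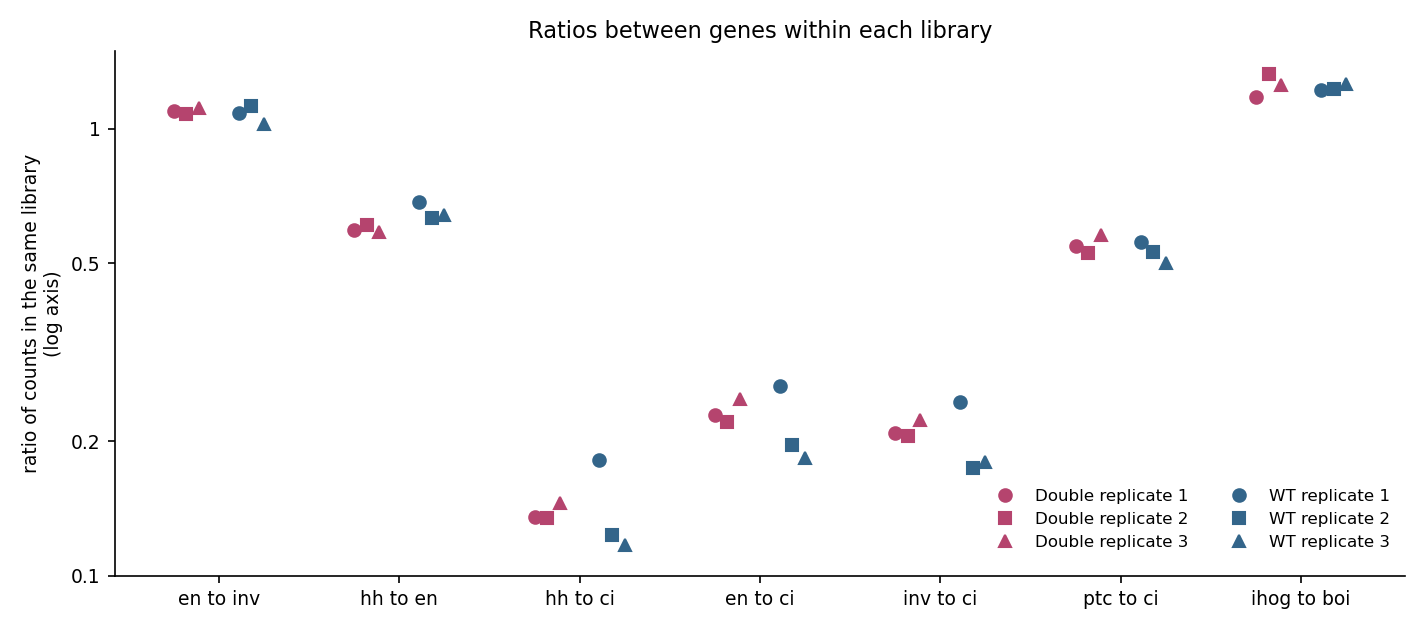
Ratio of the counts of 2 genes within each library, on a log axis, with Double (red) left of WT (blue) and 1 symbol per replicate. The ratios of hh, en and inv to ci were highest in WT replicate 1 and lowest in the other WT libraries, with Double between 0.134 and 0.248, whereas en to inv stayed between 1.02 and 1.12.

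The receptor gene ptc (patched, FBgn0003892), at 8649649 to 8665223 on the plus strand of 2R, encodes the protein that binds Hedgehog and holds Smoothened inactive without it, and ptc is itself a target of the pathway in border cells. It had 319.3, 316.8 and 326.4 CPM in Double and 283.1, 311.6 and 306.3 CPM in WT. All 3 Double libraries lay above all 3 WT libraries, by a narrow gap. For ptc the log2 fold change came to 0.095 (SE 0.06; edgeR adjusted p = 0.594), with a 95% interval from -3.58% to 18.4%. The ratio of ptc to ci, 0.527 to 0.578 in Double and 0.501 to 0.558 in WT, overlapped between the groups.

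The transducer gene smo (smoothened, FBgn0003444), at 277582 to 282167 on the plus strand of 2L, encodes the membrane protein that passes the signal into the cell once Patched is bound. It had 143.3, 156.6 and 147.7 CPM in Double and 130.1, 160.0 and 144.4 CPM in WT. The WT libraries spanned the whole Double range. Its log2 fold change came to 0.043 (SE 0.08; edgeR adjusted p = 0.866), and -0.028 without WT replicate 1. Exons of CG17078 and CG11601 on the opposite strand cover 14.6% and 12.4% of the exon length of smo. Whether the counting used strand is not stated in the sources used here. Reads of the shared stretches may therefore have been mixed between these genes or left out, which may also affect the level of smo.

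The co-receptor genes ihog (interference hedgehog, FBgn0031872) and boi (brother of ihog, FBgn0040388) encode related membrane proteins that bind Hedgehog together with Patched. The gene ihog lies on the minus strand of 2L at 6945464 to 6948808, and boi on the minus strand of X at 2444167 to 2470043. The expression of ihog was 379.7, 411.1 and 385.5 CPM in Double and 364.4, 371.2 and 367.7 CPM in WT. That of boi was 322.7, 310.7 and 307.6 CPM in Double and 299.0, 303.1 and 291.7 CPM in WT. Both were higher in all 3 Double libraries than in all 3 WT libraries. In log2 the fold change of ihog was 0.092 (SE 0.06; edgeR adjusted p = 0.592) and that of boi 0.074 (SE 0.06; adjusted p = 0.657). The upper ends of their 95% intervals were 17.7% and 15.8%. The ratio of ihog to boi was 1.18 to 1.32 in Double and 1.22 to 1.26 in WT. Exons of z on the opposite strand cover 2.45% of the exon length of boi.

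Inside the cell, cos (costa, FBgn0000352) encodes a kinesin-like scaffold that brings Ci to its kinases, and fu (fused, FBgn0001079) a protein kinase bound to it. The gene cos lies on the minus strand of 2R at 7382176 to 7387115 and fu on the plus strand of X at 18657755 to 18661204. The values of cos were 117.1, 129.0 and 116.1 CPM in Double and 110.2, 129.5 and 104.98 CPM in WT. Those of fu were 42.7, 46.0 and 46.8 CPM in Double and 44.4, 42.2 and 45.5 CPM in WT. The groups overlapped for both, with log2 fold changes of 0.072 for cos (SE 0.09; edgeR adjusted p = 0.777) and 0.036 for fu (SE 0.08; adjusted p = 0.881). With 1 library left out the log2 fold change ran from 0.0034 to 0.17 for cos and from 0.0026 to 0.067 for fu, with cos lowest without WT replicate 3 and highest without WT replicate 2, and fu lowest without Double replicate 3 and highest without Double replicate 1.

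The replicates of Double lay closer together than those of WT for 7 of the 10 genes, all but ihog, boi and fu. The coefficient of variation had a median of 3.05% in Double and 9.68% in WT over the 10 genes. For hh it was 2.07% in Double, where counting error alone gives 3.38%, and 14.7% in WT, where counting error gives 3.44%. WT replicates also varied more in 61.0% of all tested genes, with medians of 8.03% in Double and 10.2% in WT. In the 3855 tested genes at or above the level of the lowest of the 10 they did so in 67.3%, with medians of 4.99% and 7.19%.

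**Figure D3:**
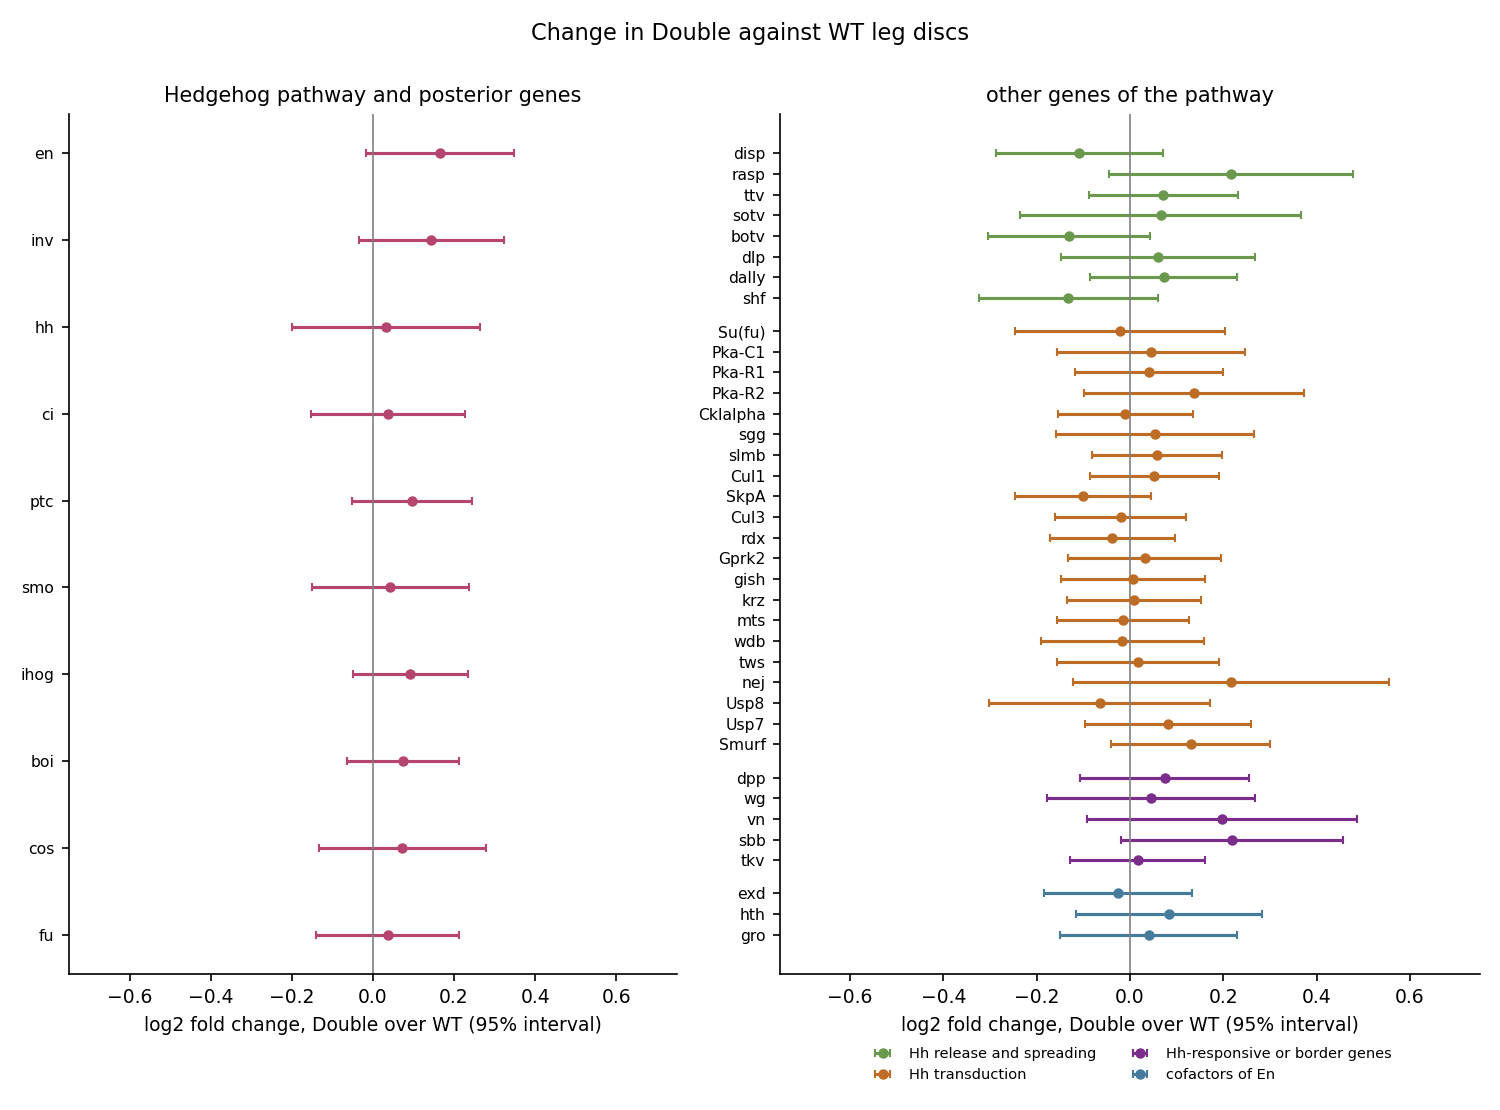
Log2 fold change of Double over WT with its 95% interval for the 10 genes (left) and for the other genes listed with the pathway (right), grouped by role, with kn left out because its interval is too wide for the axis. Every interval includes 0, and those of the 10 genes end between -0.20 and 0.35.

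Levels of different genes were compared as CPM per kb of annotated exon. The co-receptor ihog was highest, at 119.7 ± 5.10 in Double and 112.3 ± 1.04 in WT (SD, n = 3 each), followed by ci at 103.2 ± 3.25 and 100.6 ± 9.64 CPM per kb. Next came boi, at 61.9 ± 1.58 in Double and 58.8 ± 1.14 in WT, and ptc, at 58.1 ± 0.89 and 54.4 ± 2.74 CPM per kb. The selector en stood at 48.5 ± 1.43 in Double and 43.2 ± 4.34 in WT, smo at 37.2 ± 1.69 and 36.1 ± 3.72, and hh at 34.01 ± 0.70 and 33.2 ± 4.88 CPM per kb. The lowest were cos at 25.3 ± 1.51 in Double and 24.1 ± 2.71 in WT, inv at 20.9 ± 0.35 and 18.9 ± 1.85, and fu at 13.9 ± 0.67 and 13.5 ± 0.52 CPM per kb. Neighbours in this order overlapped over the 6 libraries for boi with ptc and for smo with hh, and did not overlap for the other 7 pairs. The order was the same in both groups. With the longest transcript as the length, inv stood above cos in Double.

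**Figure D4:**
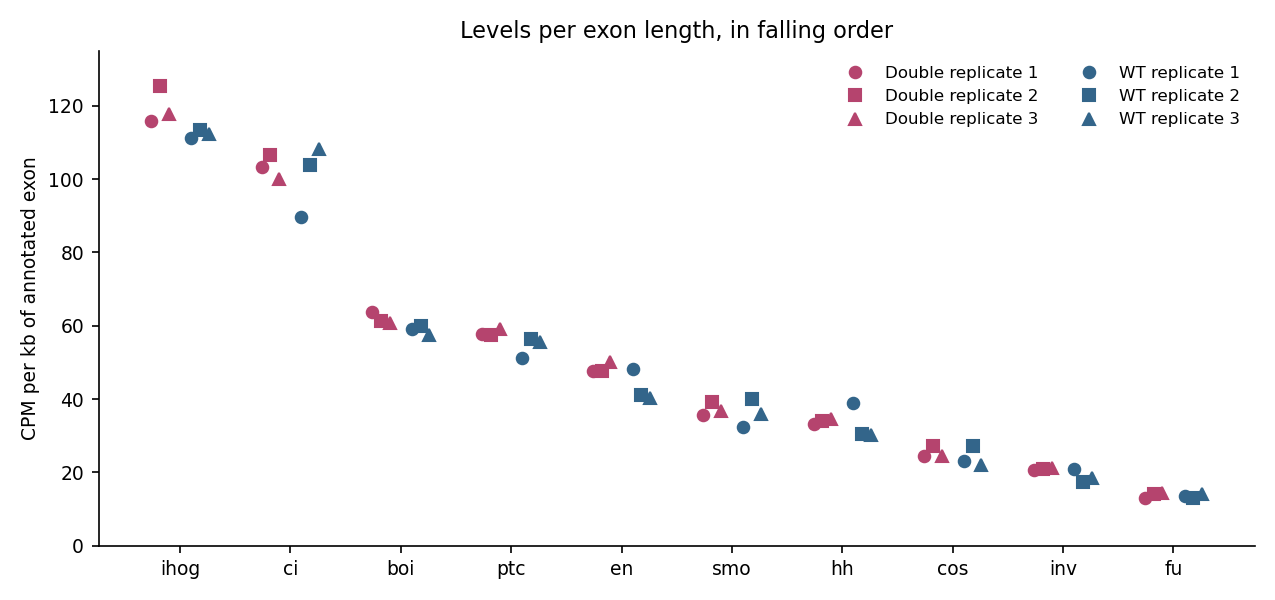
Level of each gene as CPM per kb of annotated exon, in falling order of the Double mean, with Double (red) left of WT (blue) and 1 symbol per replicate. The levels ran from 111 to 125 CPM per kb for ihog down to 13.0 to 14.4 CPM per kb for fu.

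The 38 other genes listed with the pathway included 6 Hedgehog-responsive or border genes and 3 cofactors of Engrailed. None of the 38 passed the edgeR test, none stood at an unadjusted p under 0.05, and DESeq2 and limma-voom also called none. Over all tested genes the edgeR shares were 1.49% and 12.3%. Their median log2 fold change was 0.041, with 25 above 0 and 13 below. Among 8 genes of Hedgehog release and spreading, the smallest p belonged to rasp, which encodes the acyltransferase that modifies the ligand, with 39.0 ± 5.70 CPM in Double and 33.6 ± 1.75 CPM in WT (SD, n = 3 each; edgeR adjusted p = 0.490). It was followed by botv, which encodes an enzyme of heparan sulphate synthesis, with 55.6 ± 3.74 CPM in Double and 60.8 ± 1.78 CPM in WT (edgeR adjusted p = 0.537). The log2 fold changes of this list ran from -0.13 to 0.22.

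Among 21 genes of transduction inside the cell, the smallest p belonged to Smurf, a ubiquitin ligase gene, with 183 ± 2.001 CPM in Double and 167 ± 14.4 CPM in WT (edgeR adjusted p = 0.531), and SkpA, a component of ubiquitin ligases, with 252 ± 5.30 CPM in Double and 270.5 ± 11.6 CPM in WT (adjusted p = 0.571). The median of this list was 0.017 on the log2 scale. The coactivator gene nej had the widest interval in the list, with 701 ± 16.1 CPM in Double and 603 ± 125 CPM in WT.

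Of the 6 Hedgehog-responsive or border genes, dpp, which encodes the BMP ligand induced dorsally, had 109.8, 92.2 and 106.3 CPM in Double and 97.8, 101.4 and 93.7 CPM in WT. The Wnt ligand gene wg, induced ventrally, had 114.5, 106.6 and 107.8 CPM in Double and 122.5, 94.7 and 101.3 CPM in WT. The groups overlapped for both, with log2 fold changes of 0.075 for dpp (SE 0.08) and 0.045 for wg (SE 0.10). The smallest p in this list were those of sbb, also called master of thickveins, with a log2 fold change of 0.22 (SE 0.10; edgeR adjusted p = 0.449), and of vn, an EGFR ligand gene, with 0.20 (SE 0.13; adjusted p = 0.579). WT replicate 1 was the lowest library for both, at 472.3 CPM for sbb and 36.7 CPM for vn. The other WT libraries had 599.4 and 615.9 CPM of sbb and 46.8 and 51.9 CPM of vn. Double had 629.4 to 682.9 CPM of sbb and 48.4 to 54.6 CPM of vn. The gene kn, a Hedgehog target of the wing disc, was low, at 0.95, 0.36 and 1.59 CPM in Double and 0.52, 2.38 and 3.26 CPM in WT. Of 3 cofactors of Engrailed, hth, a homeodomain partner, and gro, a corepressor, had the smallest p, with log2 fold changes of 0.083 (SE 0.09; edgeR adjusted p = 0.737) and 0.040 (SE 0.08; adjusted p = 0.876).

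The genes beside the 10 were examined because a lost PRE can act on neighbours. None of the 18 nearest tested protein-coding genes passed the edgeR test, and 1 stood at an unadjusted p under 0.05. This was unk, which encodes a zinc finger protein, 7.7 kb from hh, with 140.1 CPM in Double and 117.8 CPM in WT (log2 fold change 0.25, SE 0.08; edgeR adjusted p = 0.219). The inv and en pair is flanked by E(Pc) and tou, both chromatin protein genes, with log2 fold changes of 0.17 (SE 0.12; edgeR adjusted p = 0.589) and 0.12 (SE 0.10; adjusted p = 0.657). For both, WT replicate 1 was the lowest library, at 280.9 CPM for E(Pc) and 647.6 CPM for tou. The other WT libraries had 372.2 and 386.2 CPM of E(Pc) and 820.1 and 823.5 CPM of tou. Double had 379.5 to 399.2 CPM of E(Pc) and 817.0 to 844.8 CPM of tou. For en and inv, WT replicate 1 instead lay within the Double range. On the other side of hh, CG31457 had a log2 fold change of -0.20 (SE 0.17; edgeR adjusted p = 0.670). Beside ci, PlexB, a plexin gene, and RpS3A, a ribosomal protein gene, had 0.12 (SE 0.10; edgeR adjusted p = 0.671) and -0.0031 (SE 0.07; adjusted p = 0.991). Within 100 kb of any of the 10 genes, 0 of 139 other tested genes passed, and 14 stood at an unadjusted p under 0.05, where the shares over all tested genes were 1.49% and 12.3%.

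**Figure D5:**
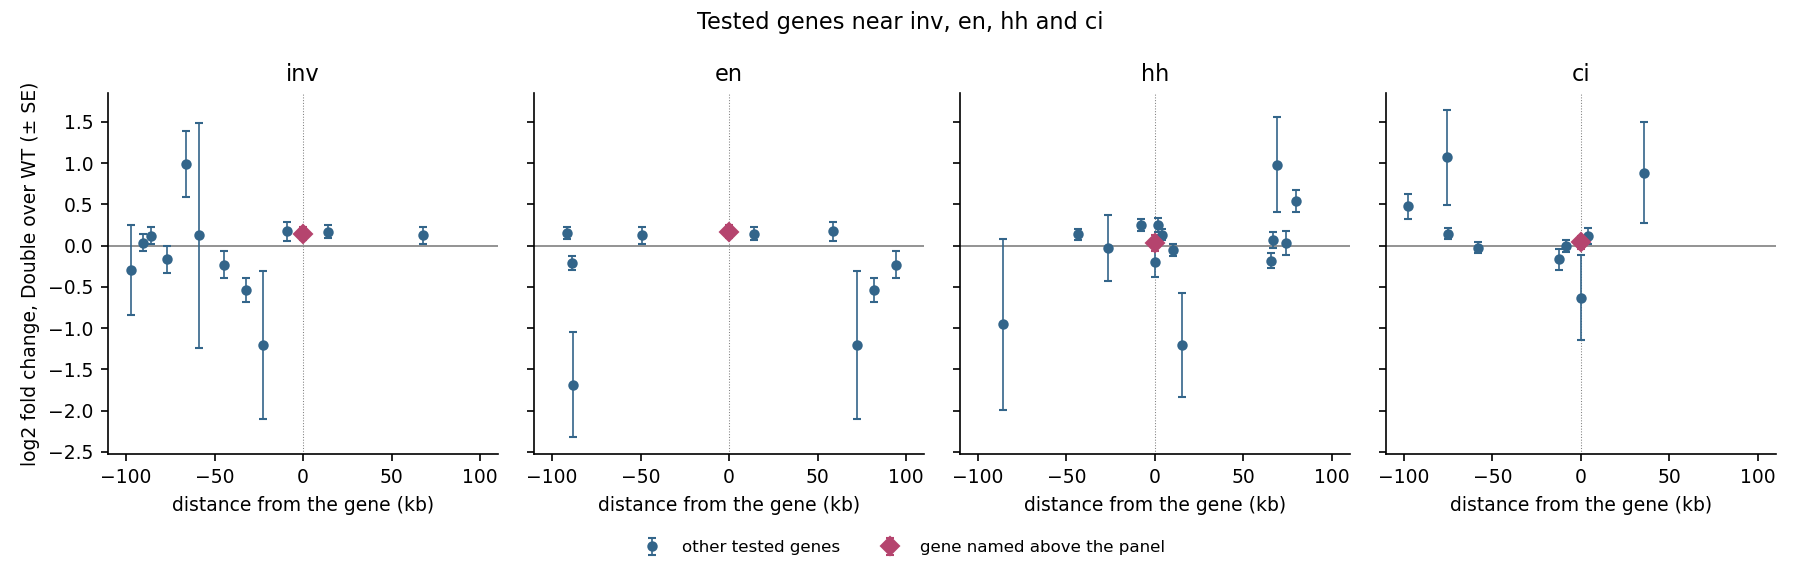
Log2 fold change of Double over WT with its SE for each tested gene within 100 kb of inv, en, hh and ci (red), against its distance in kb from the gene, negative upstream. The 4 genes lie between 0.032 and 0.17, and none of the neighbours passed the test.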

How the data were processed

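The authors deposited 1 table of raw counts per gene, as whole numbers, with 1 column for each of the 6 libraries. The submitters' processing notes list dm6 as the build and STAR 2.7.0, HTSeq and DESeq2 as tools, without saying what each did. The annotation release, filters and use of strand in counting were not stated there. Of 17612 genes, 17540 matched the Ensembl annotation BDGP 6.54 (release 115), whose coordinates are those of dm6, and which gave symbols, positions and exon lengths. Groups were taken from the sample titles.

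Double was compared with WT over all genes with edgeR 4.0.16 in R 4.3.3 (quasi-likelihood F test, TMM factors, filterByExpr by group, robust dispersions, no covariates). The threshold was 0.05 after Benjamini-Hochberg adjustment over all tested genes. The SE is the log2 fold change divided by the square root of F, and 95% intervals use the test's degrees of freedom. Replicates of a group differed beyond counting noise (chi-square of 9.47 to 39.1 per degree of freedom), and 1 count equalled 0.0737 to 0.113 CPM. The fits were tested on simulated data. DESeq2 1.42.0, limma-voom (limma 3.58.1), other factors and filters, a replicate block, a fat body covariate and each library left out in turn were the alternatives. Figures were made with matplotlib 3.10.9.

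The 10 genes and the gene lists were chosen with earlier results of these data known. The named genes are the 10, the 2 with the smallest p in each pathway list, the nearest genes of inv, en, hh and ci and any gene past the threshold. The other genes named, the window of 100 kb and the ratios of hh to en and of inv to ci were chosen after values were seen.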

Additional observations from a re-analysis of the deposited data

How the results depend on the processing

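In each of the 15 alternative settings run, 0 of the 10 genes and 0 of the 38 other genes listed with the pathway passed the threshold. Among single genes, edgeR adjusted p came lowest for en, at 0.0715 without WT replicate 1. The log2 fold change of ci was -0.034 with the fat body covariate and -0.038 to 0.084 with 1 library left out, the lowest without WT replicate 1. That of smo was -0.020 with the covariate and -0.028 to 0.12 with 1 library left out, the lowest again without WT replicate 1. That of hh lay between -0.040 and 0.16 with 1 library left out, below 0 without WT replicates 3 and 2 (-0.025) and highest without WT replicate 1. These signs are opposite to those with all libraries, and the cause was not tested. The other 7 genes kept their sign. Over all genes, 131 were called, 48 higher and 83 lower. DESeq2 called 312 (122 higher and 190 lower), and a threshold of 0.01 left 54 (19 and 35). With 1 library left out the count lay between 46 and 157, with 16 to 59 higher and 30 to 98 lower. Dropping Double replicates 1, 2 and 3 in turn gave 67, 69 and 46 called genes. Dropping WT replicates 1, 2 and 3 in turn gave 157, 64 and 88. All of these tests had fewer samples, but the count rose above 131 when WT replicate 1 was dropped and fell in the other tests. The cause was not tested. With the replicate number as a block, 166 were called and none of the 10 genes. Deviations of same-numbered libraries correlated at -0.07, -0.25 and 0.39. Those of differently numbered libraries ran from -0.45 to 0.42, so these correlations cannot tell whether the numbers pair the libraries. With the longest transcript as the length, 2 genes changed place in the Double order and 0 in the WT order. For 7 of the 10 genes WT replicates spread more than Double replicates, and beyond counting error (14.7% for hh in WT, where counting error gives 3.44%).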

Other observations

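Genes with low counts overlapped the spans of ci, ptc and fu on the opposite strand. The antisense RNA asRNA:CR43957, which shares 53 bases of exon with ci, had 14, 7 and 6 counts in Double replicates 1, 2 and 3, and 20, 11 and 12 counts in the WT replicates (log2 fold change -0.63, SE 0.52; edgeR adjusted p = 0.661). The non-coding lncRNA:CR44281, inside ptc, had 0, 0 and 1 counts in Double and 3, 0 and 3 counts in WT. CG6696, whose exons cover 6.06% of the exon length of fu, had 6, 2 and 0 counts in Double and 11, 0 and 2 counts in WT. Within 100 kb of hh, CG17121 had a log2 fold change of 0.54 (SE 0.13; edgeR adjusted p = 0.108), and within 100 kb of inv and en, the aquaporin family gene Prip had -0.54 (SE 0.14; adjusted p = 0.156). These genes were chosen after their values were seen.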
